A study of Mus musculus with 12 samples.

Results

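The liver expression of 9 genes, Avpr1a, Gas1, Slc35e3, Tmem19, Cadps2, Spsb4, Carmil1, Mn1 and Nxpe2, was lower in mice with a conditional deletion of Keap1 than in their genetic controls. These genes were chosen by their measured values, as genes lower in Keap1 conditional knockout livers, so the difference between genotypes is a description here and carries no test. They are 9 of 18193 genes that have a probe set of their own on the arrays, and 18 of 45037 probe sets that are not controls name them alone. Of these 18 probe sets, 15 exceeded a log2 signal of 5 on at least 3 arrays and were tested, and the other 3 lay at or near the lowest value of the table. Those 3 were second or further probe sets of Nxpe2, Tmem19 and Gas1, so each of the 9 genes kept at least 1 tested probe set.

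Liver RNA of 12 male C57BL/6J mice, 9 weeks old, was hybridised to 1 Affymetrix mouse array per liver, in 4 groups of 3. Conditional knockout mice, labelled CKO, carried Albumin-Cre, 1 floxed Keap1 allele and 1 null allele, and their controls, labelled WT here, carried the same Albumin-Cre with 1 floxed and 1 wild-type allele. Both genotypes therefore carried Cre and a floxed allele, the Albumin promoter restricts Cre to hepatocytes, and the null allele of CKO mice is present in every cell type. The label WT thus stands for mice with 1 wild-type Keap1 allele, whose floxed allele is exposed to Cre in hepatocytes. Mice of each genotype were gavaged with vehicle, a mix of 10% DMSO, 10% Cremophor-EL and 80% PBS, or with 30 umol/kg of CDDO-Im in that vehicle, and livers were collected after 6 h. CDDO-Im is a synthetic oleanane triterpenoid that activates the transcription factor Nrf2. Signals are log2 values made with GCRMA, which models the background of each probe from its sequence, and the lowest value in the table was 2.22.

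Keap1 is the adaptor of a cullin E3 ubiquitin ligase that keeps Nrf2 short-lived, and electrophiles such as CDDO-Im modify its cysteines so that Nrf2 accumulates. Nrf2 then binds antioxidant response elements and induces genes of detoxification, glutathione synthesis and NADPH supply. A single dose of drug asks whether a gene that is lower without Keap1 also moves within hours of pathway activation. The 9 genes do not form 1 pathway. Avpr1a is the Gq-coupled vasopressin V1a receptor, through which the hormone raises calcium and drives glycogen breakdown in hepatocytes, and Gas1 is a lipid-anchored surface protein that binds hedgehog ligands and was found as a growth arrest gene. Slc35e3 belongs to the SLC35 family of nucleotide-sugar transporters, and Tmem19 is a membrane protein of little known function. Cadps2 primes dense-core vesicles for calcium-triggered release, Spsb4 is a substrate adaptor with a SPRY domain and a SOCS box for a ubiquitin ligase, and Carmil1 binds and inhibits the actin capping protein. Mn1 is a transcriptional coregulator first described from a translocation in human meningioma, and Nxpe2 belongs to the neurexophilin and PC-esterase domain family.

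Promoter windows from RefSeq were used for 7 of the 9 genes, as 8 windows, since Tmem19 has a second annotated start, and those of Mn1 and Carmil1 were not analysed here. The 250 bases before each start site were searched on both strands for 6 motifs. The core of the antioxidant response element, TGACNNNGC, was found in none of the 8 windows, and it occurs in 10.2% of 32851 mouse promoters of the same length. The STAT core TTCNNNGAA, found in 7.02% of all promoters, and the cyclic AMP response element TGACGTCA, found in 1.55%, were also in none of the 8. The absence of these letters says only that they are not in these windows. The E-box CACGTG, found in 6.02% of all promoters, occurred once each in the windows of Slc35e3, Tmem19 and Cadps2, starting 80, 38 and 78 bases before the start site. TATAAA, found in 12.4% of all promoters, occurred in Avpr1a, 137 bases before the start. CCAAT, found in 33.9%, occurred in Avpr1a and, 68 bases before the start, in Gas1, and the windows of Nxpe2 and Spsb4 held none of the 6 motifs. The windows with an E-box, and that of Avpr1a, which lies on chromosome 10 with Tmem19 and Slc35e3, are given here, 5′ to 3′ on the strand of the gene in build GRCm38.p6, with the motifs in capitals (CACGTG in the first 3, and in Avpr1a ATTGG, which is CCAAT on the other strand, and TATAAA). The coordinates are chr10:117746359-117746608 on the minus strand for Slc35e3, chr10:115362502-115362751 on the minus strand for Tmem19, chr6:23839422-23839671 on the minus strand for Cadps2 and chr10:122448249-122448498 on the plus strand for Avpr1a. A match is a description of the letters and not a bound site.
Slc35e3: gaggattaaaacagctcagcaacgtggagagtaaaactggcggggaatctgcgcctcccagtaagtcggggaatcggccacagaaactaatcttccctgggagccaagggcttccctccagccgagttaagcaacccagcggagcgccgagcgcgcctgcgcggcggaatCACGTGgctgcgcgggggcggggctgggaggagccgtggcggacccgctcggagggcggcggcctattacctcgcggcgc
Tmem19: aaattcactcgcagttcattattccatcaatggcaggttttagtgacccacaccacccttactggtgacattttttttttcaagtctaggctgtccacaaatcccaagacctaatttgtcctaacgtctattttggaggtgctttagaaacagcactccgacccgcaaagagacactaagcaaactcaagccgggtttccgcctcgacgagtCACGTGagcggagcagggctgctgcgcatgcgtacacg
Cadps2: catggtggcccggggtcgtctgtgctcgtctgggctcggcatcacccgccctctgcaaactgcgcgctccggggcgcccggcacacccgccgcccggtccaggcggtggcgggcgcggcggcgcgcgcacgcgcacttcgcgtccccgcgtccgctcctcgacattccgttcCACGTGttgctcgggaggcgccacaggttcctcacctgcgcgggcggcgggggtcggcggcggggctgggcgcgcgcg
Avpr1a: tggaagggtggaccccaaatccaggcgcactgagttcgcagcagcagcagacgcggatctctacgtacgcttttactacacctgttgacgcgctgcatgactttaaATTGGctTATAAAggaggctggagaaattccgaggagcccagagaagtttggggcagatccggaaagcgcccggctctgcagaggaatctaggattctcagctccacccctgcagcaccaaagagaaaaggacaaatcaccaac

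The labels were checked on Keap1 itself. Probe set 1450746_at of Keap1 read 7.92 to 8.89 on the 6 WT arrays and 2.74 to 3.31 on the 6 CKO arrays, while 1450747_at read 6.58 to 8.08 and 6.15 to 6.51. All 10 listed Nrf2 target genes rose with CDDO-Im in WT livers (limma, adjusted p under 0.05). By the same test 8 of the 10 were higher in CKO than in WT livers under vehicle. For CDDO-Im in CKO livers 0 of the 10 passed, but so did 0 of all 14684 probe sets tested, so that count is not particular to these genes. Alb read 15.8 to 15.9 on every array, and of 12 hepatocyte markers only Asgr1 passed a test, with a rise of 0.36 in CDDO-Im-treated WT livers (adjusted p = 0.029). The log2 of the summed hepatocyte marker signal ranged from 18.7 to 18.7 in WT vehicle, 18.7 to 18.8 in WT CDDO-Im, 18.5 to 18.6 in CKO vehicle and 18.6 to 18.7 in CKO CDDO-Im livers. Fewer cells of a type and less RNA per cell cannot be told apart in whole liver.

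The 9 genes were lower in CKO livers to different degrees and not always under both treatments. In 13 of the 15 tested probe sets every one of the 6 CKO arrays lay below every one of the 6 WT arrays, an arrangement that held for 2.17% of all 14684 probe sets tested, and this arrangement follows from how the genes were chosen. The 2 exceptions were Slc35e3, whose groups overlapped under vehicle, and Carmil1, whose groups overlapped under CDDO-Im. Among 8338 genes, each represented by its brightest probe set over the 12 arrays, Nxpe2 had the 2nd lowest CKO minus WT difference under vehicle and the lowest under CDDO-Im. Under CDDO-Im 8 of the 9 genes ranked between 1 and 10, and Carmil1 ranked 1263. Under vehicle the ranks ran from 2 for Nxpe2 and 8 for Carmil1 to 36 for Spsb4, and Slc35e3 ranked 597. For comparison, 6.03% of all probe sets tested passed the genotype test under vehicle and 1.46% under CDDO-Im, and nothing is read from these shares for genes chosen on that difference.

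**Figure D1:**
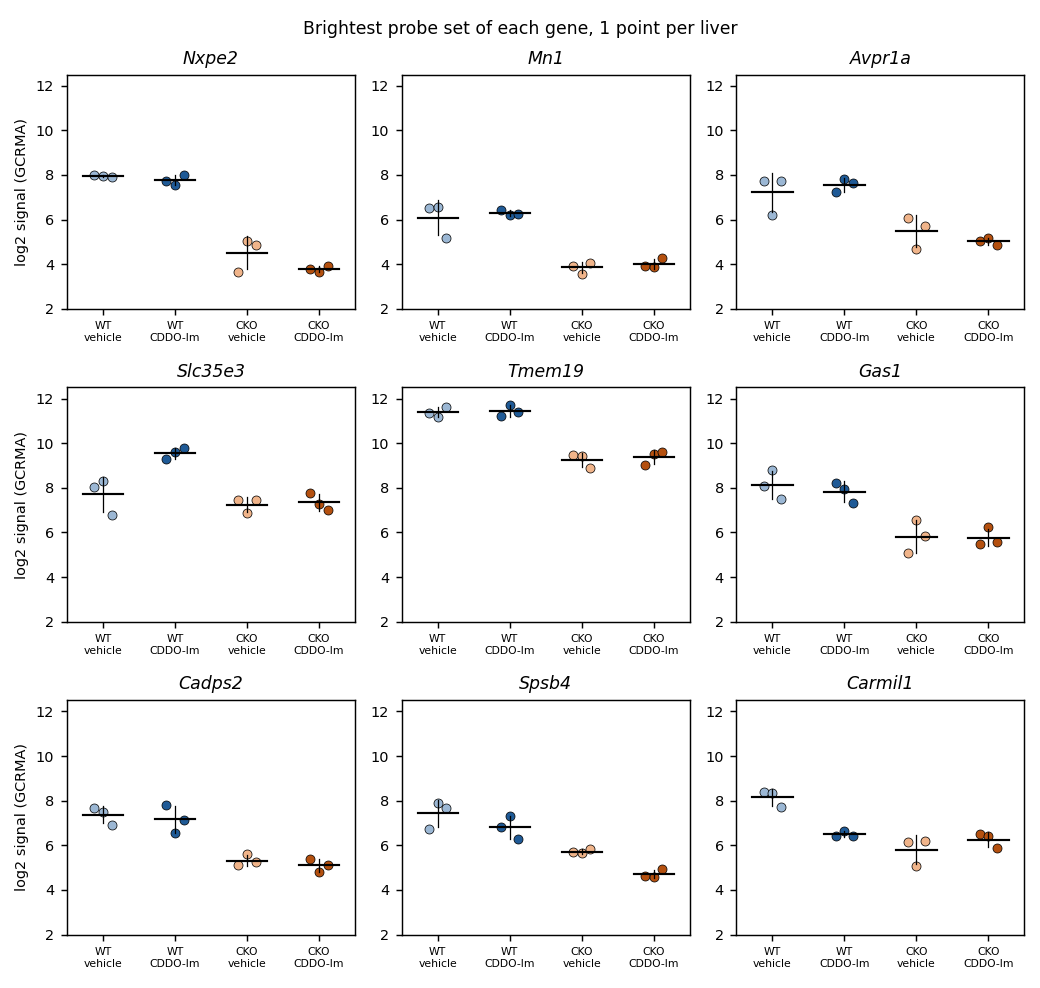
Log2 signal (vertical axis) of the brightest probe set of each gene in the 4 groups (horizontal axis), with 1 point per liver, a horizontal bar at the mean and a vertical line of 1 SD on each side (n = 3). Slc35e3 stands apart in the WT CDDO-Im group (mean 9.55) and Carmil1 in the WT vehicle group (mean 8.16), while the other 7 genes show both WT groups above both CKO groups.

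Avpr1a, the vasopressin receptor, was lower in CKO livers on both of its probe sets. Probe set 1418603_at read 7.72, 6.20 and 7.73 in WT vehicle livers, 7.22, 7.81 and 7.65 in WT CDDO-Im livers, 6.08, 4.68 and 5.70 in CKO livers given vehicle, and 5.02, 5.19 and 4.88 in treated CKO livers. The highest CKO liver, 6.08, lay just under the lowest WT liver, 6.20, so the 12 arrays separated by genotype with little room under vehicle. The vehicle means were 7.22 ± 0.88 in WT and 5.49 ± 0.72 in CKO (SD, n = 3), 3.32-fold apart on the linear scale, and the CDDO-Im means of 7.56 ± 0.31 and 5.03 ± 0.15 were 5.79-fold apart. The second probe set, 1418604_at, differed by -2.23 under vehicle and -2.58 under CDDO-Im (log2), with CKO livers at 2.46 to 4.51 and WT livers at 5.22 to 6.57.

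CDDO-Im did not pass the test for Avpr1a in either genotype. On 1418603_at the difference from vehicle was 0.34 in WT livers (95% interval -0.62 to 1.31) and -0.46 in CKO livers (-1.42 to 0.50), and neither interval lay within 1 log2 unit. Each vehicle group held 1 liver well below the others, WT replicate 2 at 6.20 and CKO replicate 4 at 4.68. CKO vehicle replicate 4 also had the lowest Hsd3b5 signal of the 12 livers, 6.27, against 8.86 and 9.90 in the other CKO vehicle livers. WT vehicle replicate 2, the other liver low in Avpr1a, had the highest Hsd3b5 signal of the 12, 13.47, against 13.22 and 12.47 in the other WT vehicle livers. Hsd3b5 is a male-specific liver enzyme under growth hormone control, and its part in the Avpr1a values was not tested. Of the 17 tested genes of the growth hormone and male-biased list, 6 fell in CKO livers under vehicle, led by Hsd3b5 (-4.71, adjusted p = 0.014) and Elovl3 (-3.17, adjusted p = 0.012). In that contrast 6.03% of all probe sets tested passed in either direction. This list was chosen with earlier results of these data known, so its count is a description. The list median was -0.72 against -0.0035 over all probe sets tested. Under CDDO-Im 0 of 17 passed, against 1.46% of all probe sets tested, with a list median of -0.30 against -0.0086. Hsd3b5 differed by -2.32 under CDDO-Im (limma adjusted p = 0.25).

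Few partners of the receptor passed a test. Of 19 other genes of vasopressin and Gq-calcium signalling with a probe set, 12 were tested, and 0 of 12 passed in any CDDO-Im contrast. Those contrasts called 0% to 3.88% of all probe sets tested, so 0 of 12 is near the general share. Between genotypes, the inositol trisphosphate receptor Itpr2 fell by 0.79 under vehicle (adjusted p = 0.0059) and the kinase Prkcd fell by 0.36 under CDDO-Im (adjusted p = 0.044), and the list medians were 0.029 and -0.045. Avpr1b, the pituitary vasopressin receptor, sat at the floor on all 12 arrays.

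Gas1, the hedgehog-binding surface protein, was also lower in CKO livers whatever the treatment. Probe set 1416855_at read 8.10, 8.78 and 7.51 in WT vehicle livers, 8.22, 7.95 and 7.33 in WT CDDO-Im livers, 5.09, 6.54 and 5.82 in CKO livers given vehicle, and 5.50, 6.23 and 5.58 in treated CKO livers. Every WT liver was above every CKO liver, and the treated and vehicle livers of each genotype overlapped. The linear fold of WT over CKO was 4.98 under vehicle and 4.18 under CDDO-Im. The dimmer probe set 1448494_at showed smaller log2 differences, -1.27 under vehicle and -1.06 under CDDO-Im. The CDDO-Im differences on 1416855_at were -0.30 in WT (95% interval -1.22 to 0.62) and -0.04 in CKO livers (-0.96 to 0.88), and neither passed.

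The hedgehog pathway itself was barely measurable. Of 14 ligands, receptors and transducers with a probe set, 12 stayed under a log2 signal of 5 on all arrays, with Dhh, Gli1 and Gli2 at the floor throughout. Only the receptor Ptch1 and the inhibitor Sufu were tested, and neither passed in any of the 6 contrasts. Gas1 is also known from stellate cells and fibroblasts, and 15 markers of those cells were on the arrays with 12 tested. Of these, only Reln fell in CKO livers under vehicle (-0.51, adjusted p = 0.038), and the log2 of the summed marker signal ranged from 13.3 to 13.4 in WT vehicle, 13.2 to 13.5 in WT CDDO-Im, 13.2 to 13.5 in CKO vehicle and 13.1 to 13.5 in CKO CDDO-Im livers. The median CKO minus WT difference of the 12 tested markers was -0.25 under vehicle, in the direction of Gas1, and -0.036 under CDDO-Im, against -0.0035 and -0.0086 over all probe sets tested. Among them Lum, a matrix proteoglycan, had means of 5.83 in WT and 4.80 in CKO vehicle livers, and Acta2, smooth muscle actin, had means of 6.18 and 5.44. Rgs5, a brighter marker of the same list, went the other way, with 10.02 in WT and 10.46 in CKO vehicle livers. Under CDDO-Im the WT and CKO means were 5.27 and 5.19 for Lum, 5.34 and 5.28 for Acta2, and 10.14 and 9.92 for Rgs5. Des was at the floor on all arrays, and the part of these cells in the Gas1 values was not tested.

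Slc35e3, the SLC35 family member, was the gene that rose with CDDO-Im in WT livers. Its 1 probe set, 1428805_at, read 8.03, 8.29 and 6.80 in WT vehicle livers, 9.28, 9.61 and 9.77 in WT CDDO-Im livers, 7.43, 6.85 and 7.45 in CKO livers given vehicle, and 7.76, 7.28 and 6.99 in treated CKO livers. The 3 treated WT livers were the highest of the 12, and the WT vehicle livers overlapped both CKO groups through replicate 3, at 6.80. In WT livers CDDO-Im raised Slc35e3 by 1.85 ± 0.36 (log2, SE; 95% interval 1.05 to 2.64; limma adjusted p = 0.022), and in CKO livers the difference was 0.10 (-0.70 to 0.89). The interaction was -1.75 ± 0.51 and did not pass (adjusted p = 0.25), so a difference in response between the genotypes was not shown. The call in WT livers was lost without WT CDDO-Im replicate 3 (adjusted p = 0.068) or replicate 4 (adjusted p = 0.088). The rise shares its treated WT arrays with the genotype difference under CDDO-Im, where Slc35e3 ranked 6 from the lowest. Under vehicle Slc35e3 ranked 597, so the choice of this gene favoured a rise in WT livers.

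The lower Slc35e3 signal of CKO livers lay mainly in the treated animals. The genotype difference was -0.46 under vehicle, with a linear fold of 1.37, and -2.21 under CDDO-Im, with a linear fold of 4.62. Without WT vehicle replicate 3 the vehicle difference was -0.91, and without WT vehicle replicate 2 it was -0.17. Of 15 other SLC35 genes tested, Slc35d1, which carries UDP-glucuronic acid and UDP-N-acetylgalactosamine into the endoplasmic reticulum, rose with CDDO-Im in WT livers by 0.68 (adjusted p = 0.029). Slc35d1 was also higher in CKO than in WT livers under vehicle by 0.69 (adjusted p = 0.021), as was Slc35f5 by 0.49 (adjusted p = 0.017), and the other 13 did not pass.

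Tmem19 was lower in CKO livers on all 4 of its tested probe sets, and these disagreed on CDDO-Im. Its 5 probe sets fell into 3 bright ones, 1 dim one and 1 near the floor. On 1416262_at the WT vehicle livers read 11.37, 11.16 and 11.63, the WT CDDO-Im livers 11.20, 11.72 and 11.39, the CKO vehicle livers 9.47, 9.42 and 8.90 and the CKO CDDO-Im livers 9.04, 9.52 and 9.60. The genotypes were 4.36-fold apart under vehicle and 4.14-fold under CDDO-Im, and 1416261_at and 1448275_at gave folds of 3.78 and 3.90 under vehicle. Across these 3 probe sets the CDDO-Im difference in WT livers was 0.04 to 0.17 and none passed, with 95% intervals that all lay between -0.42 and 0.51. In CKO livers the 3 differences ran from -0.03 to 0.12, with intervals between -0.45 and 0.59, so all these intervals lay within 1 log2 unit.

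The dim Tmem19 probe set, 1443049_at, was the one that differed with drug in WT livers. It read 5.74, 5.44 and 5.61 in WT vehicle livers, 3.46, 4.52 and 4.001 in WT CDDO-Im livers, 2.37, 2.27 and 2.44 in CKO livers given vehicle, and 2.45, 2.32 and 2.43 in treated CKO livers. The WT groups did not overlap, and the CKO livers, at 2.27 to 2.45, were near the floor of 2.22. With CDDO-Im it fell by 1.60 ± 0.21 in WT livers (log2, SE; 95% interval -2.07 to -1.14, adjusted p = 0.0032), while the difference in CKO livers, 0.04 (-0.43 to 0.51), was measured at the floor and cannot show a fall. It entered the tests only through its 3 WT vehicle arrays, which were the only ones over 5, so the filter favoured a fall from that group, and the fall passed when all probe sets were tested but not when only the WT groups were fitted (adjusted p = 0.065). The interaction of 1.65 did not pass (adjusted p = 0.062), but passed without WT CDDO-Im replicate 2 (adjusted p = 0.037) or 3 (adjusted p = 0.018). With other single arrays left out its limma adjusted p reached up to 0.16. The averaged CDDO-Im effect, -0.78 ± 0.15, passed in limma (adjusted p = 0.027) but not in the exact permutation test within genotypes (two-sided exact p = 0.075, n = 3 per group). In limma it was lost without WT vehicle replicate 3, WT CDDO-Im replicate 4, CKO vehicle replicate 3 or 4, or any 1 of the 3 CKO CDDO-Im livers (adjusted p from 0.050 to 0.070). The labels do not place this probe set within the Tmem19 transcript.

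**Figure D2:**
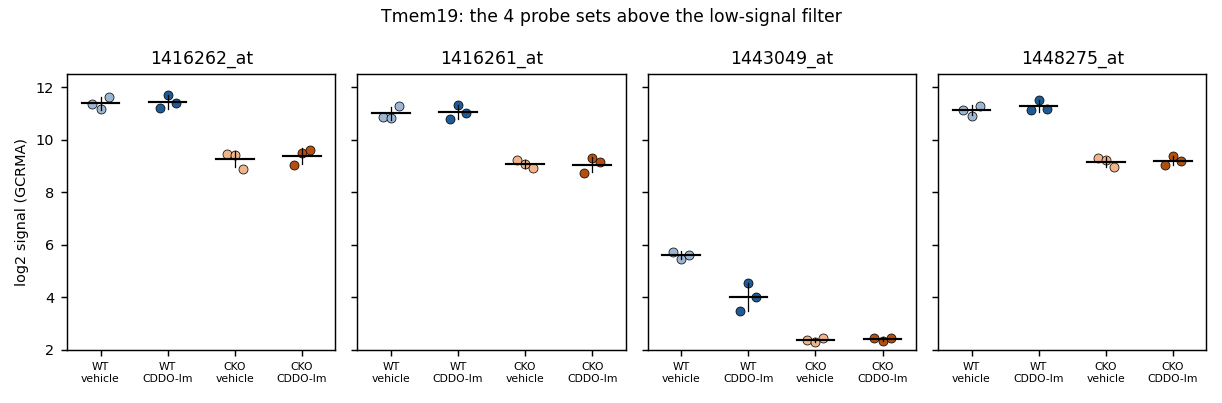
Log2 signal (vertical axis) of the 4 tested Tmem19 probe sets in the 4 groups (horizontal axis), with 1 point per liver, the mean as a bar and 1 SD as a line (n = 3). The WT CDDO-Im group lies level with WT vehicle on the 3 bright probe sets and below it on 1443049_at, where the means are 3.99 and 5.60.

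Cadps2, the vesicle priming factor, was lower in CKO livers by the same amount with and without drug. Probe set 1451499_at read 7.66, 7.51 and 6.93 in WT vehicle livers, 7.80, 6.56 and 7.11 in WT CDDO-Im livers, 5.10, 5.59 and 5.24 in CKO livers given vehicle, and 5.39, 4.81 and 5.12 in treated CKO livers. Every CKO liver was below every WT liver, and the WT over CKO fold was 4.15 under both treatments. The CDDO-Im differences were -0.21 in WT (95% interval -0.88 to 0.46) and -0.21 in CKO livers (-0.88 to 0.47). Neither passed, and both intervals lay inside 1 log2 unit. The related gene Cadps sat at the floor on all 12 arrays, and of 10 tested genes of vesicle priming and SNARE fusion 0 passed in any of the 6 contrasts. Those 6 contrasts called 0% to 6.03% of all probe sets tested, so 0 of 10 is near the general share.

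Spsb4, the ubiquitin ligase adaptor, had a negative CDDO-Im difference in both genotypes, and neither passed. Probe set 1451418_a_at read 6.73, 7.89 and 7.68 in WT vehicle livers, 6.80, 7.31 and 6.30 in WT CDDO-Im livers, 5.68, 5.65 and 5.83 in CKO livers given vehicle, and 4.64, 4.57 and 4.92 in treated CKO livers. The CKO groups did not overlap, and the WT groups did. The CDDO-Im difference was -0.63 in WT (95% interval -1.30 to 0.04) and -1.01 in CKO livers (-1.68 to -0.34), and the latter did not survive adjustment (adjusted p = 0.49). The effect averaged over genotypes was -0.82 ± 0.21 (limma adjusted p = 0.074, two-sided exact permutation p = 0.015 before adjustment, n = 3 per group). With single arrays left out, the limma adjusted p ran from 0.017, without WT vehicle replicate 1, to 0.14. The dimmer 1451419_at gave an averaged difference of -0.48 (-1.02 to 0.07), and its 6 CKO values, 2.25 to 2.63, were near the floor.

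Of 13 tested genes of SPRY and SOCS box ligases, Socs4, an adaptor of the same SOCS box class, fell with CDDO-Im by 0.38 in WT livers (adjusted p = 0.047) and by 0.31 averaged over genotypes (adjusted p = 0.034). The other 12 did not pass in those contrasts. Between genotypes 0 of 13 differed by the same test, against 6.03% of all probe sets under vehicle and 1.46% under CDDO-Im. Nos2, a substrate of this adaptor family, was at the floor on all arrays.

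Carmil1, the actin capping regulator, fell with CDDO-Im in WT livers. Probe set 1451804_a_at read 8.41, 8.35 and 7.71 in WT vehicle livers, 6.40, 6.66 and 6.42 in WT CDDO-Im livers, 6.15, 5.05 and 6.19 in CKO livers given vehicle, and 6.50, 6.40 and 5.88 in treated CKO livers. The 3 WT vehicle livers were the highest of the 12, and the treated WT livers overlapped the treated CKO livers. With CDDO-Im Carmil1 fell by 1.66 ± 0.31 in WT livers (log2, SE; 95% interval -2.34 to -0.98, adjusted p = 0.017), and the difference in CKO livers was 0.46 (-0.22 to 1.14). The genotypes were 5.14-fold apart under vehicle and 1.18-fold under CDDO-Im. The interaction of 2.124 ± 0.43 did not pass (adjusted p = 0.092), and it shares its arrays with the vehicle difference on which Carmil1 was chosen, as does the fall in WT livers. The fall lost its call without WT vehicle replicate 1 (adjusted p = 0.052) or 2 (adjusted p = 0.062) or WT CDDO-Im replicate 4 (adjusted p = 0.069). Of 10 tested genes of actin capping and CARMIL partners, 0 passed in any contrast. That count is near the share over all probe sets tested, 0% to 6.03% per contrast.

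Mn1, the transcriptional coregulator, was detected over a log2 signal of 5 in WT livers alone. Probe set 1454867_at read 6.52, 6.57 and 5.17 in WT vehicle livers, 6.45, 6.21 and 6.24 in WT CDDO-Im livers, 3.93, 3.58 and 4.06 in CKO livers given vehicle, and 3.90, 3.89 and 4.27 in treated CKO livers. All 6 WT livers exceeded all 6 CKO livers, with WT vehicle replicate 3 nearest to them. The genotype differences were -2.23 and -2.28 (log2), and no linear fold is given because the CKO means were under 5. CDDO-Im differences were 0.21 in WT (95% interval -0.50 to 0.92) and 0.16 in CKO livers (-0.54 to 0.87), and neither passed. Of 10 tested retinoid receptors and coactivators, a group that includes the coactivators with which MN1 is known to act in human cells, 0 passed in any contrast. This too is near the share over all probe sets tested, 0% to 6.03% per contrast.

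Nxpe2 had the largest genotype difference of the 9 genes. Probe set 1453220_at read 7.99, 7.94 and 7.89 in WT vehicle livers, 7.71, 7.56 and 8.01 in WT CDDO-Im livers, 3.67, 5.02 and 4.87 in CKO livers given vehicle, and 3.77, 3.65 and 3.92 in treated CKO livers. The lowest WT liver stood 2.54 above the highest CKO liver. The log2 difference between genotypes was -3.42 under vehicle and -3.98 under CDDO-Im. The CDDO-Im difference was -0.18 in WT livers (95% interval -0.83 to 0.46) and -0.74 in CKO livers (-1.38 to -0.09), which did not pass after adjustment (adjusted p = 0.55). CKO vehicle replicate 3, at 3.67, lay within the treated CKO livers, and without it the averaged CDDO-Im effect, -0.46 over all arrays, was -0.67 (limma adjusted p = 0.015). Leaving out any other single array gave limma adjusted p from 0.29 to 0.41. Of the other neurexophilin and PC-esterase genes only Nxph3 was tested, and it did not pass in any contrast.

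Across all 15 probe sets, 3 passed the test 6 h after CDDO-Im in WT livers. In WT livers 1 probe set rose (Slc35e3), 2 fell (Carmil1 and the dim probe set of Tmem19) and 12 did not pass, against 3.88% of all 14684 probe sets called in that contrast. The 3 calls became 1 when no probe set was filtered out, when only the WT groups were fitted or when the replicate number was a block. This contrast shares the WT vehicle arrays with the genotype difference under vehicle and the treated WT arrays with that under CDDO-Im. The 3 calls rest on arrays by which these probe sets were chosen or filtered, so their number is not read as an excess over 3.88%. In the effect averaged over the genotypes 0 probe sets rose and 1 fell, against 2.36% called of all. That 1 was Tmem19 1443049_at, which passed the filter only through its WT vehicle arrays, so the filter itself favours a fall from that group and the call supports nothing about the 9 genes. In CKO livers 0 of the 15 passed, and so did 0% of all probe sets in limma, of which 1236 had an unadjusted p under 0.05. The interaction called 0 of the 15 and 0.327% of all. The median difference of the 15 probe sets was -0.18 in WT livers, -0.03 in CKO livers and -0.17 averaged, against -0.02 in each over all probe sets tested. A p that misses the threshold does not show that a gene stayed level. The 95% intervals lay within 1 log2 unit of 0 in both genotypes for 6 probe sets, which belong to Tmem19 (its 3 bright ones), Mn1, Gas1 (its dimmer one) and Cadps2. For Avpr1a, Spsb4 (1451418_a_at) and Carmil1 they reached beyond 1 unit in both genotypes. The 6 CKO values of Mn1, 3.58 to 4.27, were all under 5, so its CKO interval does not show that Mn1 was unmoved.

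**Figure D3:**
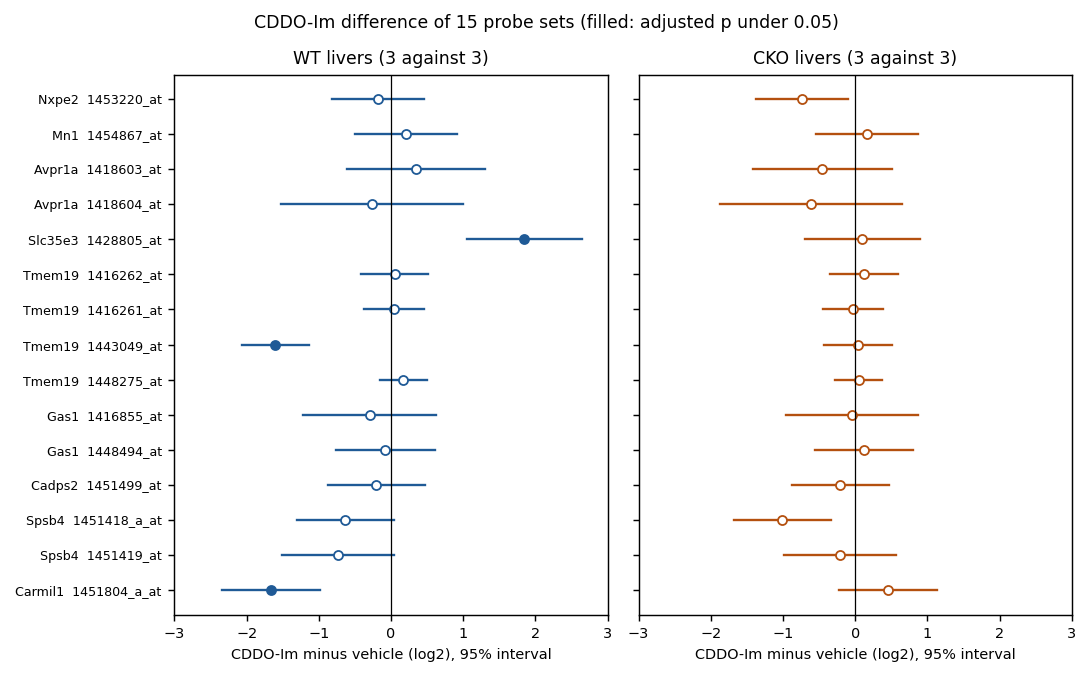
CDDO-Im minus vehicle on the log2 scale (horizontal axis) for the 15 tested probe sets (vertical axis), in WT livers on the left and CKO livers on the right, with the 95% interval from limma as a line (3 livers against 3). Filled points have an adjusted p under 0.05 and are Slc35e3, Carmil1 and Tmem19 1443049_at in WT livers, and no point is filled in CKO livers.

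The genes near the 9 on their chromosomes were read for the same separation by genotype. The 10 nearest tested genes on each side of each gene, in RefSeq order, were compared. Of the 20 around each gene, 0 had all 6 CKO livers below all 6 WT livers. This separation held for 2.49% of all 8328 genes in that order, so 0 of 20 around any 1 gene is near the general share. The 9 sets of 20 were not pooled. The median vehicle difference of the 20 ran from -0.12 around Slc35e3 to 0.04 around Spsb4. Avpr1a, Slc35e3 and Tmem19 lie on chromosome 10, with 11 tested genes between Tmem19 and Slc35e3 and 12 between Slc35e3 and Avpr1a. The 23 genes in between had vehicle differences of -0.62 to 0.39, and 0 of them separated by genotype in that direction. Over chromosome 10 as a whole, 8 of 435 tested genes (1.84%), with Tmem19 and Avpr1a among them, separated in this way, against 207 of 8328 genes (2.49%) with a place in the table. Nxpe2 and Spsb4 lie on chromosome 9, as does Keap1, with 183 tested genes between them, and Gas1 and Carmil1 lie on chromosome 13 with 131 between them. Single neighbours differed by genotype in the other direction, among them Pls1, an actin bundling protein near Spsb4, at 2.98 (log2, vehicle), and Tafa2, a secreted protein near Avpr1a, at 2.16. Their WT vehicle means, 3.21 for Pls1 and 2.40 for Tafa2, were under 5, the latter close to the floor of 2.22. Under vehicle, the lowest values among neighbours were -1.32 for 2900026A02Rik and -0.98 for Ulk1, an autophagy kinase, both near Mn1, and under CDDO-Im these were -0.24 and 0.03. Under CDDO-Im the lowest were -1.70 for Ripor2 near Carmil1 and -1.37 for Apoa4, an apolipoprotein gene near Nxpe2, which were -0.77 and -0.54 under vehicle.

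**Figure D4:**
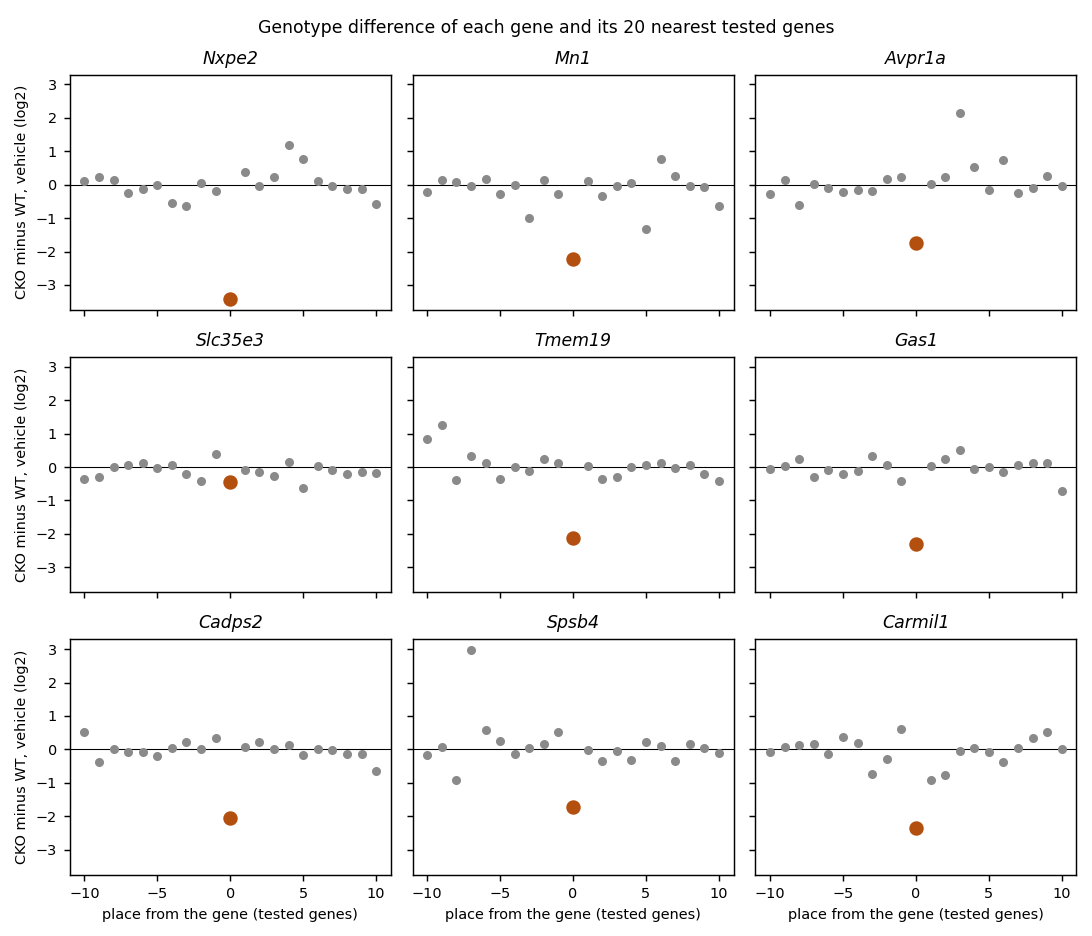
CKO minus WT difference under vehicle on the log2 scale (vertical axis) for each of the 9 genes at place 0 (orange) and the 10 nearest tested genes on each side (grey), in order along the chromosome (horizontal axis). For every gene but Slc35e3 (-0.46) the orange point lies below all grey ones, which reach from -1.32 to 2.98.

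Genes with the most similar profile over the 12 arrays were found by Pearson correlation with the brightest probe set of each gene. The genes chosen as lower in CKO livers were left out of this search, so each ranking is among the other genes. The 12 arrays form 4 groups, so a high r mostly reflects the shared group pattern, and r is given as a measure of likeness without a test. Spin1, a histone methylation reader, was among the 3 most similar genes for Mn1 (r = 0.979), Cadps2 (0.939) and Nxpe2 (0.938). Akt2, the insulin-responsive kinase, was so for Gas1 (0.957), Tmem19 (0.944) and Nxpe2 (0.932), although its log2 means moved only from 10.12 and 10.07 in WT to 9.75 and 9.78 in CKO livers. Notum, a Wnt inhibitor of pericentral hepatocytes, was the closest to Nxpe2 among the genes searched (0.945). Cadps2, left out of the search, had a higher r with Nxpe2 (0.952). Of 14 tested pericentral and Wnt target genes, Notum (-0.54, adjusted p = 0.045) and Gulo (-0.51, adjusted p = 0.033) fell and Rhbg rose (1.34, adjusted p = 0.010) in CKO livers under vehicle, and the other 11 did not pass.

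Sult5a1 was the closest to Avpr1a (r = 0.965), followed by Irf5 (0.946) and Hsd3b2 (0.931). Zfp275 (0.928), Car5a (0.919) and Ypel5 (0.906) were the closest to Slc35e3, and Ypel5 also rose with CDDO-Im in WT livers by 0.68 (adjusted p = 0.046). Jund, a subunit of the AP-1 transcription factor, was the closest to Carmil1 (0.965) and fell with CDDO-Im in WT livers by 0.59 (adjusted p = 0.011), with means of 9.22 and 8.63 in WT and 8.41 and 8.47 in CKO livers. Rfc2 (0.923) and Fryl (0.922) followed. For Spsb4 these were Stxbp6 (0.951), H2-Q5 (0.928) and Mmp14 (0.928), and H2-Q5 fell with CDDO-Im in WT livers by 0.87 (adjusted p = 0.033). Outside the 9, Kyat3 was the closest to Cadps2 (0.943), with Ago1 (0.939) after Spin1, while Trim30d (0.945) and Nox4 (0.932) followed Spin1 for Mn1. Among the genes searched, Tpst1 (0.933) and Ganab (0.929) followed Akt2 for Tmem19, and Cenpb (0.945) and Il1rap (0.938) followed it for Gas1.

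Markers of other liver cells were read beside these results. Marco, a Kupffer cell receptor, was higher in CKO livers under vehicle by 2.304 (adjusted p = 0.017), as was Lyve1, of sinusoidal endothelium, by 2.24 (adjusted p = 0.020), and Lyve1 also rose with CDDO-Im in WT livers by 2.57 (adjusted p = 0.015). The other 9 of 10 tested macrophage markers and 9 of 10 tested endothelial markers did not pass. The log2 of the summed macrophage signal was 13.0 to 13.9 in WT vehicle and 13.3 to 13.9 in CKO livers given vehicle, and that of endothelial markers was 11.85 to 12.08 and 11.88 to 11.98. Of the cholangiocyte and lymphocyte markers 1 each was tested, with Cftr, Cd3e, Cd3g, Cd79a and Nkg7 at the floor, and none passed. Of erythroid markers 2 were tested and neither passed, with Hba-a1 and Epb42 at the floor and a median CKO minus WT difference of -0.42 under vehicle and -0.41 under CDDO-Im. Alas2, the erythroid enzyme of haem synthesis, had differences of -0.89 (adjusted p = 0.21) and -0.81 (adjusted p = 0.34). The log2 of the summed erythroid signal was 11.1 to 11.5 in WT vehicle and 9.53 to 11.3 in CKO vehicle livers, which overlapped, and 10.9 to 11.4 in WT CDDO-Im and 9.98 to 10.6 in CKO CDDO-Im livers, which did not. The part of these markers in the values of the 9 genes was not tested.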

How the data were processed

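Values are the log2 signals the authors deposited for 45101 probe sets on 12 arrays, made with GCRMA (2.12.1) run under R (2.7.0), per the submitters' processing notes, with no further settings stated. The floor of 2.22 held 16494 to 16776 probe sets on each array, and a linear fold is given where neither mean is under 5. The number of arrays limits the precision. The platform table names 1 gene for 34945 probe sets and several for 932, and 9160 are not named; 34741 Entrez identifiers matched the RefSeq table of GRCm38.p6, which changed 0 symbols. After 64 controls were left out, 14684 probe sets over 5 on at least 3 arrays were fitted with limma 3.58.1 in R 4.3.3, as 4 group means sharing 1 spread, with two-sided p-values, Benjamini-Hochberg adjustment over all of them and calls under 0.05. The script was tested on simulated data. Each array is 1 mouse per the labels, and p-values measure the spread between these mice.

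The members and gene lists were chosen with earlier results of these data known. Always named were the 9 genes, Keap1 and Nrf2 targets. From each list the 2 largest called rises and 2 largest called falls per contrast were added. So were the 3 most correlated genes outside the 9 for each of the 9, and neighbours whose vehicle difference reached the smallest of the 9. Only some of those genes are printed, and the rest are given as counts. Replicate numbers were not used as pairs: deviations of same-numbered livers correlated from -0.168 to 0.133. Alternatives were 1 probe set per gene, 2 other filters, 2 normalizations, only the groups compared, trend and robust settings, a replicate block, each array left out and exact permutation tests.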

Additional observations from a re-analysis of the deposited data

How the results depend on the processing

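Of the probe sets of the 9 genes, 3 were called for CDDO-Im in WT livers, and the number was 1 with no filter, with only the groups compared or with the replicate block, and 1 to 3 with single arrays left out (1 without WT CDDO-Im replicate 4). Slc35e3 was lost in all 3 of these settings (adjusted p 0.138, 0.101 and 0.082), Carmil1 with no filter (0.112) and the replicate block (0.084), and Tmem19 1443049_at with only the groups compared (0.065). Its averaged fall was lost with no filter (0.157), with the block (0.120) and without each of 7 single arrays in turn (up to 0.070), and its interaction was called after median centring (0.046). Within 1 genotype an exact permutation test of 3 against 3 cannot go below 0.1.

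Over all probe sets, the 570 calls for CDDO-Im in WT livers became 304 with 1 probe set per gene, 160 with no filter, 201 with only the groups compared and 244 with the replicate block, and 217 to 578 with single arrays left out (217 without WT CDDO-Im replicate 4, 271 without replicate 3 and 309 without WT vehicle replicate 2). The 347 averaged calls became 205 with 1 probe set per gene, 48 with no filter and 156 to 392 with arrays left out, where the lowest came without CKO CDDO-Im replicates 3 (156) and 4 (184), CKO vehicle replicates 3 (170) and 4 (230), WT CDDO-Im replicates 3 (221) and 4 (170) and WT vehicle replicate 2 (224). The 0 calls in CKO livers became 1 with no filter, 6 with the block and 0 to 3 with arrays left out (3 without CKO vehicle replicate 4, 2 without replicate 5 and 2 without WT vehicle replicate 1), and the 48 interaction calls became 23 with 1 probe set per gene, 12 with no filter, 9 with the block and 7 to 55 with arrays left out (7 and 21 without CKO CDDO-Im replicates 3 and 2, 8 without CKO vehicle replicate 3, 24 and 22 without WT CDDO-Im replicates 3 and 4, and 30 without WT vehicle replicate 1). Median centring changed the split of rises and falls from 296 and 274 to 387 and 233 in WT livers, and from 165 and 182 to 252 and 139 averaged; quantile normalization gave 344 and 250, and 221 and 159. Genes of the fixed lists called in WT livers numbered 14, and 6 with no filter, 7 with only the groups compared, 8 with the block and 8 to 13 with arrays left out (8 and 9 without WT CDDO-Im replicates 4 and 3); between genotypes under vehicle the 23 became 11, 12, 8 and 17 to 24. The 13 separated probe sets numbered 13 to 14 with arrays left out, 13 after median centring and 12 after quantile normalization.

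Uncalled differences near 0 changed sign. In WT livers, single arrays left out gave -0.16 to 0.60 and -0.68 to -0.011 for Avpr1a 1418603_at and 1418604_at (0.027 with the replicate block), -0.53 to 0.092 for Cadps2, -0.61 to 0.025 and -0.29 to 0.34 for Gas1 1416855_at and 1448494_at, -0.25 to 0.45 for Mn1, and -0.094 to 0.17 and -0.099 to 0.19 for Tmem19 1416262_at and 1416261_at (-0.0097 and -0.037 with the block). In CKO livers they gave -0.11 to 0.27 for Slc35e3, -0.0028 to 0.080 for Tmem19 1443049_at, -0.058 to 0.30 for 1416262_at, -0.15 to 0.13 for 1416261_at (0.0049 with quantile normalization and 0.032 with the block) and -0.055 to 0.13 for 1448275_at. Gas1 1416855_at gave -0.41 to 0.32 and 1448494_at 0.016 to 0.30 (-0.12 with the block).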
